A study of Mus musculus with 12 samples.

Results

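Ovarian support cells of the mouse embryo were compared across the day on which the gonads of the 2 sexes begin to differ. The comparison sets the 3 XX arrays of embryonic day 12.5 (E12.5) against the 3 XX arrays of E11.5, which are 6 of the 12 arrays of the series and were chosen by their labels. Each array holds RNA from 1 pool of somatic support cells that had been isolated by flow cytometry from gonads of mouse embryos on the FVB background. All 4 groups carried the same 2 transgenes, Tg(Tyr)3412ARpw, a tyrosinase transgene, and Tg(Sry-EGFP)92EI, a green fluorescent reporter under the Sry promoter, which is that of the testis-determining gene. The other 6 arrays are the XY pools of the same days, 3 for each, which enter the estimate of the spread and serve below to ask whether a change in XX cells differed from that in XY cells. The labels call the XX tissue ovary at both days and give no agent or treatment. Nothing in them ties a pool to a litter of its own, and the p-values cover only pool-to-pool spread, some of it possibly technical. In sorted pools a lower signal can come from fewer cells of a type or from less RNA per cell, and the 2 cannot be told apart.

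Supporting cells of the gonad start out alike in XX and XY embryos. In XY gonads Sry switches on Sox9 and the cells become Sertoli cells, whereas in XX gonads Wnt signalling through Rspo1 and Wnt4, together with the forkhead factor Foxl2, leads them to become granulosa cells, which later surround the oocyte. XX supporting cells stop dividing at about this stage and express cell cycle inhibitors, and much of their later programme is held in check in XY cells by the Sertoli factors.

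All 4 genes used as markers of ovarian support cells rose over the day, as did 1.69% of all probe sets. Their promoters are shown first because these 4 genes carry the comparison and differ in base composition. Each line gives the 100 bases just before the transcription start, 5′ to 3′ on the strand of the gene, from RefSeq on the GRCm38.p6 build, with every CpG dinucleotide in capitals.
Foxl2: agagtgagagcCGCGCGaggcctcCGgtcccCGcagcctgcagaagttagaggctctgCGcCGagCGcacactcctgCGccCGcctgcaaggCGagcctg
Rspo1: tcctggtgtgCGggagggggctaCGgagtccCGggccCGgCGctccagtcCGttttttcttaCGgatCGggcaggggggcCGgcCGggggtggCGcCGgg
Irx3: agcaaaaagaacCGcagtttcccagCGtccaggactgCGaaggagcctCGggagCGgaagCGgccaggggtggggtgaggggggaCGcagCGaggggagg
Gng13: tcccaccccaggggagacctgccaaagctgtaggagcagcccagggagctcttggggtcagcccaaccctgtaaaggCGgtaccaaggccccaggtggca
The stretches lie at chr9:98955507-98955606 on the plus strand for Foxl2, chr4:124986330-124986429 on the plus strand for Rspo1, chr8:91801655-91801754 on the minus strand for Irx3 and chr17:25717072-25717171 on the plus strand for Gng13. Gng13 has 2 starts in the table and the one listed first was used. Over the 250 bases before the start, Foxl2 and Rspo1 each held 22 CpG dinucleotides, Irx3 held 13 and Gng13 held 2, against a median of 6 over 27025 promoters. The GC content of the same windows was 70.8%, 66.8%, 56.0% and 58.8% for Foxl2, Rspo1, Irx3 and Gng13, against a median of 52.0%.

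Foxl2 read 8.26, 7.54 and 8.78 on the log2 scale in E11.5 pools 1, 2 and 3, and 11.11, 11.03 and 11.11 in the E12.5 pools. The days did not overlap, as at every probe set that passed the test. The 3 later pools lay within a far narrower band (SD 0.05, n = 3) than the 3 earlier ones (SD 0.63, n = 3). The rise was 2.89 ± 0.28 (log2 difference and its standard error in limma), a 7.42-fold change with a 95% interval from 4.79 to 11.5 and an adjusted p of 0.0026. Rspo1, a secreted activator of Wnt signalling, went from 8.27, 7.71 and 8.35 to 10.32, 10.69 and 10.29. That is a 5.01-fold rise (95% interval 3.09 to 8.13, limma adjusted p = 0.0078). Irx3, a homeobox factor of the Iroquois family, went from 9.56, 8.16 and 10.45 to 12.6, 12.73 and 12.86. Its 10.1-fold rise (4.8 to 21.3, limma adjusted p = 0.011) had the widest spread at the earlier day of the 4 markers, with an SD of 1.15. Gng13, a gamma subunit of heterotrimeric G proteins, went from 6.45, 5.77 and 5.8 to 8.93, 9.56 and 9.56, a 10.2-fold rise (6.6 to 15.7, limma adjusted p = 0.00094). Without E11.5 pool 2, described below, the differences were 2.56 for Foxl2, 2.12 for Rspo1, 2.72 for Irx3 and 3.23 for Gng13, and all 4 stayed called (limma adjusted p = 0.0043, 0.026, 0.012 and 0.0062). The call of Irx3 was lost without E12.5 pool 3, and the other 3 held whichever XX array was left out. Foxl2 and Gng13 each have a further probe set that was dim and did not pass the test, with differences of 0.44 and 0.16.

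Genes of the sex chromosomes and cell markers were read beside the labels. The 2 Xist probe sets that did not pass the test over the day read 12.8 to 12.95 and 10.48 to 11.7 in the 6 XX arrays. Their XY means at E11.5 and E12.5 were 7.23 and 7.0 for the first and 4.87 and 4.62 for the second. The third Xist probe set is described below. For the Y-linked genes Eif2s3y, Kdm5d and Uty, 5 probe sets were picked because every XY array read above every XX array. They are therefore no check of the labels. These 5 read 3.33 to 5.17 in XX, and that range is taken below as the level of background. Sox9, the driver of Sertoli fate, read 5.6 to 6.58 in XX at both days, a little above that range, and Amh, the hormone of Sertoli cells, read 6.23 to 6.75.

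**Figure D1:**
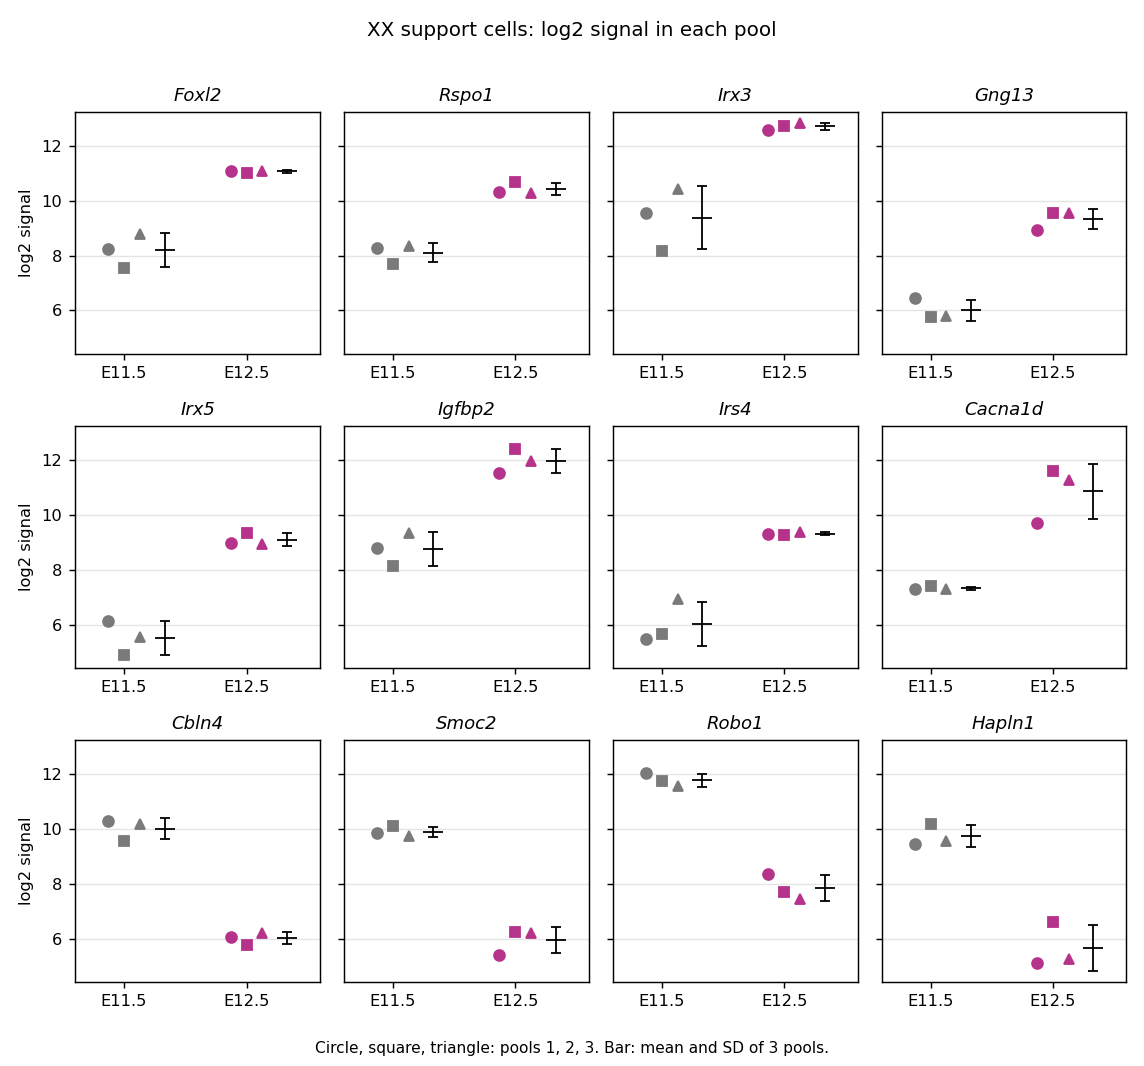
Log2 signal (y axis) of 12 genes in the 3 pools of E11.5 (grey) and E12.5 (magenta) XX support cells, with pool 1 as a circle, pool 2 as a square and pool 3 as a triangle. Black bars are the mean and SD of 3 pools. The 8 genes of the upper rows rose and the 4 of the lowest row fell. The days do not overlap for any of them, as at every called probe set.

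The 3 pools of E11.5 were less alike than those of E12.5. Pool 1 of E11.5 correlated more closely over all probe sets with pool 1 of E12.5 (Pearson r = 0.974) than with pools 2 and 3 of its own day (0.963 and 0.967). The 3 pairs within E12.5 lay between 0.974 and 0.984. Pool 3 of E11.5 had the lowest values against E12.5 pools 2 and 3 (0.927 and 0.929), followed by pool 2 (0.933 and 0.934), and pools 2 and 3 of E11.5 stood at 0.953. Pool 2 of E11.5 had the highest mean signal of the 6 XX arrays for endothelial markers (8.64 over 19 genes, the other 5 arrays 6.43 to 7.02), for mesenchyme markers (9.44 over 15 genes, the others 7.78 to 8.33) and for macrophage and leukocyte markers (7.93 over 16 genes, the others 6.70 to 7.53). The same pool was also highest for mitosis genes (10 over 25 genes, the others 6.71 to 8.54) and for DNA replication genes (10.33 over 26 genes, the others 9.13 to 9.57). It was lowest for the ovarian support list (9.12 over 25 genes, the others 9.73 to 10.46). Calls that were lost without this pool are named below for the genes described in full.

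**Figure D2:**
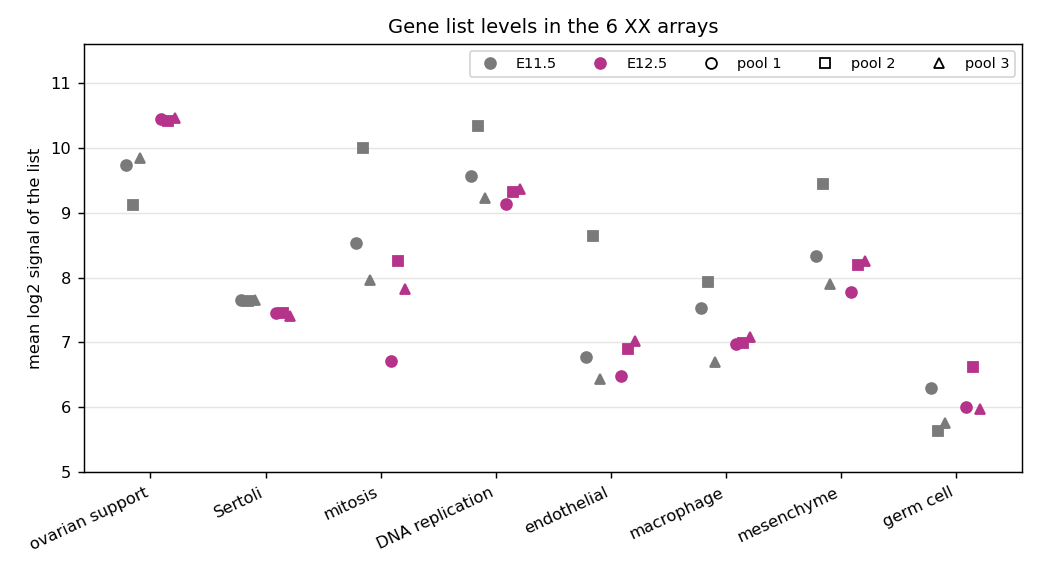
Mean log2 signal (y axis) of 8 gene lists (x axis) in each XX array, with 1 probe set per gene. The square of E11.5, pool 2, lies above the other arrays for the mitosis, replication, endothelial, macrophage and mesenchyme lists and below them for the ovarian support list.

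Over all 44238 probe sets, 1378 (3.11%) passed the test, 747 higher at E12.5 (1.69%) and 631 lower (1.43%). They came from 607 genes with a rise and 453 with a fall. The days did not overlap at any of the 1378, and the same held for 26.6% of all probe sets. The median log2 difference was 1.21 for the rises and -1.59 for the falls, against 0.06 over all probe sets. At the brightest probe set of each gene, read from the same fit, 2.55% of the 17996 genes rose and 1.21% fell, with a median of 0.12. Leaving out E11.5 pool 2 left 593 calls, 276 rises and 317 falls. Of the 1378 probe sets, 479 stayed called and all 1378 kept their direction, with medians of 1.14 and -1.53. The count also fell without E11.5 pool 3 (596), E12.5 pool 2 (218) and E12.5 pool 3 (183), whereas it rose to 1945 without E11.5 pool 1. A set of 152 probe sets, 96 rises and 56 falls, stayed called whichever of the 6 XX arrays was left out. Of the 56 called genes named by rule below, 20 did so, among them Foxl2, Rspo1, Gng13, Irx5, Cbln4, Smoc2 and Robo1. The other 36 lost their call without E12.5 pool 3, and 34, 24, 23, 10 and 6 genes did so without E12.5 pool 2, E11.5 pool 3, E11.5 pool 2, E12.5 pool 1 and E11.5 pool 1. On the X chromosome, 16 of 614 genes rose and 10 fell at their brightest probe set, with a median of 0.08.

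Egfl6, a secreted matrix protein with EGF repeats, rose most among the genes named by rule. It went from 5.69, 6.95 and 7.02 to 9.36, 10.91 and 10.88, a 14.2-fold rise (95% interval 6.84 to 29.7, limma adjusted p = 0.0055). Pool 1 was the lowest of its day on both days. Irx5, the neighbour of Irx3 in the Iroquois cluster, followed with 6.11, 4.88 and 5.56 against 8.99, 9.36 and 8.94, an 11.9-fold rise (6.78 to 21.0, adjusted p = 0.0029). Cacna1d, the pore subunit of an L-type calcium channel, had nearly equal values at E11.5 (7.29, 7.39 and 7.29) and spread values at E12.5 (9.72, 11.62 and 11.27). Its rise was 11.7-fold (6.06 to 22.4, adjusted p = 0.0047), and a further probe set of the gene differed by 0.7 without passing the test.

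Genes of the insulin and growth factor route followed. Irs4, a docking protein of insulin and IGF receptor signalling, read 5.47, 5.66 and 6.93 and then 9.32, 9.26 and 9.39, a 9.88-fold rise (5.6 to 17.4, limma adjusted p = 0.004). Its second probe set differed by 0.32 without passing. Igfbp2, which binds insulin-like growth factors outside the cell, went from 8.78, 8.14 and 9.36 to 11.54, 12.42 and 11.97, a 9.31-fold rise (5.35 to 16.2, adjusted p = 0.004). Among the 17 genes of this route, Foxo1, a transcription factor that insulin signalling holds out of the nucleus, rose as well (1.44), and Pik3r1, the regulatory subunit of PI3 kinase, fell (-1.75). Foxo1 passed at 2 of 4 probe sets, yet its call was lost when any 1 of the 6 XX arrays was left out (adjusted p = 0.074 without E11.5 pool 2). Pik3r1 passed at 1 of 4 probe sets and kept its call without that pool (0.045), but not without E12.5 pool 2 or pool 3. The other 13 genes did not pass the test, among them the receptors Insr (-0.14) and Igf1r (-0.83). Over all genes 2.55% rose and 1.21% fell.

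Stum rose 9.84-fold (7.68, 7.19 and 8.45 against 10.42, 11.17 and 11.63, limma adjusted p = 0.004). Il17d, a cytokine of the interleukin 17 family, rose 8.43-fold (5.07, 5.0 and 5.79 against 8.12, 8.57 and 8.4, adjusted p = 0.0046). A second Il17d probe set differed by 0.63 without passing. Foxl2os, the transcript next to Foxl2 on the opposite strand, rose 8.95-fold (7.17, 6.13 and 8.23 against 9.75, 10.72 and 10.55, adjusted p = 0.019). E11.5 pool 2 was the lowest of its day for all 3. Without that pool the adjusted p was 0.012 for Stum, 0.018 for Il17d and 0.047 for Foxl2os, whose call was lost without E12.5 pool 2 or pool 3. Insyn2b (5.44, 4.43 and 7.48 against 8.74, 8.95 and 9.44) rose by 3.26 on the log2 scale, with an adjusted p of 0.025 that became 0.052 without E11.5 pool 2. Pde8b, a phosphodiesterase that breaks down cyclic AMP, passed at both of its probe sets with rises of 3.08 and 1.84. For the larger of these the E11.5 mean of 4.85 lay in the range of background and the call was lost without E11.5 pool 2 (adjusted p = 0.08), while the smaller kept its call in all 6 fits that left out an XX array.

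**Figure D3:**
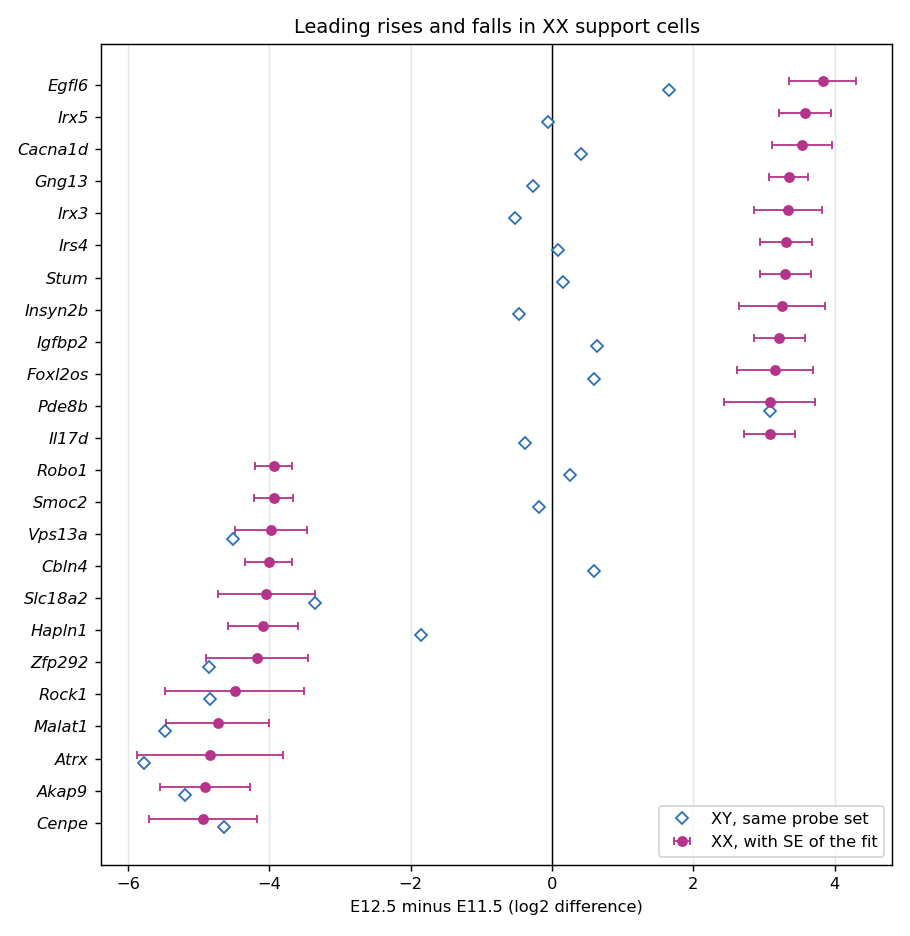
Log2 difference between E12.5 and E11.5 (x axis) for the 12 largest rises and 12 largest falls in XX cells that the naming rule took, 1 probe set per gene (y axis), with Xist (-5.03) and probe sets without a single gene symbol left out. Magenta points are XX with the standard error of the fit and open blue diamonds are the same probe set in XY. Rises lie between 3.08 and 3.83. For Cenpe, Akap9, Atrx, Malat1, Rock1, Zfp292, Slc18a2 and Vps13a the XY point lies at -3.36 or lower as well.

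Among ovarian support genes rises outnumbered falls. At their brightest probe sets 8 of the 25 genes rose (Foxl2, Rspo1, Irx3, Irx5, Gng13, Axin2, Cdkn1b and Nr0b1) and none fell. Over all genes 2.55% rose and 1.21% fell. The median difference of the list was 0.67, and 0.51 without E11.5 pool 2, against 0.12 for all genes. At a probe set other than the brightest, Fst rose (2.35, limma adjusted p = 0.045), while Lhx9 (-1.99, 0.0045) and Kitl (-0.95, 0.044) fell. The list includes the 4 markers and was written with earlier results of these data known, so it is no independent evidence of direction. Axin2, a target and brake of Wnt signalling, was the tightest of the 8 rises, reading 8.41, 8.54 and 8.46 and then 10.01, 9.81 and 9.95 (2.74-fold, 95% interval 2.2 to 3.4, limma adjusted p = 0.0025). Its second probe set differed by 0.23 without passing. Nr0b1, a nuclear receptor that antagonises Nr5a1, rose 2.12-fold (10.15, 9.42 and 10.11 against 10.71, 11.08 and 11.15) at an adjusted p of 0.049. That call was lost without E11.5 pool 2 (0.12) and also without E11.5 pool 3, E12.5 pool 2 or E12.5 pool 3. Cdkn1b, an inhibitor of cyclin-dependent kinases, read 6.75, 6.14 and 6.28 and then 7.25, 7.24 and 7.69, a 2.0-fold rise (1.46 to 2.73, adjusted p = 0.032, and 0.093 without E11.5 pool 2). It was the single gene of 7 such inhibitors to pass, and Cdkn1c differed by -0.22 and Cdkn1a by 0.46. A second Cdkn1b probe set differed by 0.36 without passing.

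Several well-known ovarian genes were already bright at E11.5 and did not pass the test. Wnt4, the Wnt ligand needed for ovarian development, read 12.03, 10.99 and 11.34 against 11.88, 11.76 and 11.77 (0.35 ± 0.35, limma adjusted p = 0.6). Fst, the activin-binding protein follistatin, read 10.68, 9.63 and 12.12 against 12.68, 12.74 and 12.72. Its days did not overlap, and the difference of 1.91 ± 0.49 had an adjusted p of 0.063, while the second probe set of the gene passed with 2.35 (0.045, and 0.061 without E11.5 pool 2). Bmp2, a ligand of the BMP family, differed by 0.75 (adjusted p = 0.19) and Runx1, a transcription factor of early granulosa cells, by 0.97 (0.21). For Fst, Runx1 and Wnt4 the E11.5 values were the more scattered, with SDs of 1.25, 0.74 and 0.53 against 0.03, 0.12 and 0.07 at E12.5. Among further members that did not pass, Kitl, the ligand of the Kit receptor on germ cells, differed by -1.12 at its brightest probe set and was called lower at 1 of 4. Of the 8 calls of the list 6 held without E11.5 pool 2.

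Within the Iroquois family the change was that of Irx3 and Irx5. The other 4 members, Irx1, Irx2, Irx4 and Irx6, had means between 5.42 and 6.37 at both days and differed by 0.24, 0.17, -0.04 and 0.2, none past the test. Of 33 genes of the Wnt pathway, 4 rose and none fell, against 2.55% and 1.21% of all genes, with a median of 0.22, and 2 rose without E11.5 pool 2. Beside Rspo1 and Axin2 these were Sp5, a transcription factor induced by Wnt signalling (1.27, limma adjusted p = 0.028), and Rnf43, a ligase that removes Wnt receptors (0.83, 0.043). Both calls were lost without E11.5 pool 2 (0.081 and 0.069), and the E11.5 mean of Rnf43, 5.03, lay in the range of background. Wnt6 and Wnt9a, Wnt ligands, had differences of 1.31 and 1.51 with adjusted p-values of 0.051 and 0.055, and the pathway's transducer Ctnnb1 differed by -0.17. At a probe set other than the brightest, Wnt5a, a ligand, rose by 1.35 (0.024) and Nkd1, an inhibitor induced by the pathway, by 0.90 (0.031), and both held without E11.5 pool 2 (0.0062 and 0.039).

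Early regulators of the gonad gave 2 rises (Cbx2 and Nr0b1) and 1 fall (Zfpm2) among 16 genes at their brightest probe sets, with a median of 0.07. Over all genes 2.55% rose and 1.21% fell, with a median of 0.12. At a probe set other than the brightest, Podxl (1.1, limma adjusted p = 0.049) and Cited2 (1.52, 0.04) rose. Neither call held without E11.5 pool 2 (0.11 for both). Wt1, a zinc finger factor required to form the gonad, read 11.65, 11.53 and 12.45 against 12.06, 12.03 and 11.84 (0.10 ± 0.21). Nr5a1, the nuclear receptor of steroid-producing and supporting cells, differed by 0.57 ± 0.30, and Gata4, which activates Sry, by 0.70 ± 0.33, with limma adjusted p-values of 0.29 and 0.24. Lhx9 and Emx2, homeobox factors of the early gonad, differed by 0.04 ± 0.17 and -0.11 ± 0.25 at their brightest probe sets. A second probe set of Lhx9 fell by 1.99 (adjusted p = 0.0045), from 11.72, 11.9 and 11.44 to 10.04, 9.68 and 9.37, and its other 2 did not pass (0.22 and -0.75). Cbx2, a Polycomb protein needed for Sry expression, rose by 0.88 (adjusted p = 0.027, and 0.068 without E11.5 pool 2). A second Cbx2 probe set differed by 0.29 without passing. Zfpm2, the cofactor of Gata4, fell by 1.84, from 11.93, 12.01 and 11.81 to 10.36, 9.4 and 10.47 (3.58-fold, 95% interval 2.33 to 5.5, adjusted p = 0.012). The Zfpm2 call held in all 6 fits that left out an XX array, and its second probe set differed by -0.37 without passing.

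Sertoli genes gave 2 falls and no rise among 24 at their brightest probe sets, against 1.21% and 2.55% of all genes, with a median of -0.05. At a probe set other than the brightest, Vnn1 fell (-1.05, limma adjusted p = 0.026, and 0.024 without E11.5 pool 2). Without E11.5 pool 2 Fgf9, a growth factor that upholds Sertoli fate, passed as a rise (2.23, limma adjusted p = 0.039), where the 6 arrays gave 1.46 (0.18). Cbln4, a secreted protein of the cerebellin family, fell the most, from 10.28, 9.58 and 10.18 to 6.06, 5.76 and 6.19 (16.1-fold, 95% interval 9.76 to 26.6, limma adjusted p = 0.00086). Cyp26b1, the enzyme that degrades retinoic acid, fell from 10.37, 9.45 and 10.39 to 9.03, 8.18 and 7.92 (3.23-fold, 2.03 to 5.16, adjusted p = 0.021, and 0.016 without E11.5 pool 2). Its call was lost without E11.5 pool 3, E12.5 pool 2 or E12.5 pool 3. Cyp26b1 was also the single call at the brightest probe set among 17 genes of retinoic acid metabolism and binding. Rxra of those 17 rose at another probe set (0.72, limma adjusted p = 0.022, and 0.066 without E11.5 pool 2). Dmrt1, which keeps Sertoli identity later on, read 10.74, 10.36 and 11.34 against 10.06, 9.59 and 9.03 and did not pass (-1.25, adjusted p = 0.068). Sox9 (-0.06) and Amh (0.19) stayed low, with adjusted p-values of 0.94 and 0.75.

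Genes of the matrix and of cell guidance were among the largest falls. Hapln1, which links hyaluronan to proteoglycans, fell at all 4 of its probe sets (-4.09, -3.89, -2.64 and -2.55). Its leading probe set went from 9.46, 10.2 and 9.57 to 5.09, 6.6 and 5.27 (17.0-fold, 95% interval 7.96 to 36.3, limma adjusted p = 0.0048). Those at -4.09 and -2.64 kept their calls in all 6 fits without an XX array, while those at -3.89 and -2.55 lost theirs in each of the 6 (adjusted p = 0.11 and 0.13 without E11.5 pool 2). Smoc2, a secreted calcium-binding matrix protein, fell from 9.84, 10.1 and 9.73 to 5.41, 6.24 and 6.22 (15.3-fold, 10.1 to 23.2, adjusted p = 0.00047). Its other probe set read lower too, by 1.7, with an adjusted p of 0.068. Robo1, the receptor of Slit guidance cues, fell from 12.04, 11.74 and 11.57 to 8.37, 7.71 and 7.46 at its brightest probe set (15.3-fold, 10.3 to 22.8, adjusted p = 0.00047). Its 2 dimmer probe sets differed by -1.3 and 0.19 and did not pass.

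Of 32 extracellular matrix genes, 3 rose and 3 fell, against 2.55% and 1.21% of all genes, with a median of -0.03, and 0.18 without E11.5 pool 2. The rises beside Egfl6 were Col6a1, a chain of collagen VI (1.91, limma adjusted p = 0.012), and Lamc1, the gamma chain of laminins (1.21, 0.028, and 0.08 without E11.5 pool 2). The second Lamc1 probe set differed by -0.51 without passing. Col6a2, a second collagen VI chain chosen after its values were seen, rose at both of its probe sets by 2.11 and 1.58. The falls beside Hapln1 were Mmp2, a matrix metalloprotease, at both of its probe sets (-1.31 and -1.47), and Adamts1, a protease of proteoglycans (-1.48, adjusted p = 0.048). Without E11.5 pool 2 the adjusted p was 0.11 and 0.1 for the Mmp2 probe sets and 0.12 for Adamts1. Nid1 and Sparc, basement membrane and matrix proteins, fell by 0.95 and 1.5 at a probe set other than the brightest, and neither call held without that pool (0.11 and 0.094). Of 42 guidance and migration genes, 2 rose and 4 fell, against the same shares of all genes, with a median of -0.05. Sema3a, a secreted guidance cue, rose from 9.46, 8.91 and 9.51 to 11.06, 11.37 and 11.25 (3.82-fold, 2.64 to 5.53, adjusted p = 0.0054) and by 2.15 at a second of its 3 probe sets (0.019). Dcc, a netrin receptor, rose by 0.67 (0.04) at 1 of 3 probe sets, and its other 2 read lower without passing. Pdgfc, a platelet-derived growth factor, fell at both probe sets (-1.61 and -1.75), and Sema3c fell by 1.81 at 1 of 2. Robo1 and Pdgfra, a receptor of that growth factor, were the other falls of the list. The calls of Sema3c and Dcc were lost without E11.5 pool 2 (adjusted p = 0.095 and 0.093).

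Of 50 ion channel genes 3 rose and none fell, against 2.55% and 1.21% of all genes. Beside Cacna1d these were Ano1, a calcium-activated chloride channel (8.01, 8.62 and 7.8 against 10.31, 10.39 and 10.74, 5.03-fold, limma adjusted p = 0.0039), and Cacna2d3, an auxiliary calcium channel subunit (1.36, 0.019, and 0.059 without E11.5 pool 2), whose E11.5 mean of 5.09 lay in the range of background. A second Ano1 probe set differed by 0.38 without passing. At a probe set other than the brightest, the channel subunits Cacna1c (1.35), Cacna2d2 (0.45) and Gabrb1 (2.42) rose and Cacna2d1 (-1.25) fell, of which Cacna1c held without E11.5 pool 2 (limma adjusted p = 0.033, the others 0.094 to 0.11). Of 42 G protein and RGS genes 3 rose, Gng13, Rgs12 (0.97) and Rgs10 (1.08), against 2.55% of all genes. Rgs proteins are brakes on G protein signalling, and both of these calls were lost without E11.5 pool 2 (adjusted p = 0.088 and 0.11). Rgs12 passed at 1 of 3 probe sets, of which the lowest differed by -0.46. At a further probe set Rgs2 rose (1.05), while Rgs4 (-2.62) and the alpha subunit Gnas (-1.38) fell, and Rgs4 alone of these held without that pool (0.034, against 0.1 and 0.079). The TGF-beta, BMP and activin list gave 1 rise in 34, Bmp7 (0.67, adjusted p = 0.046), which passed at 2 of 3 probe sets and was lost without E11.5 pool 2 (0.12). The Notch list gave 1 rise in 17, Notch2, a receptor (0.70, 0.031, and 0.086 without that pool). A second Notch2 probe set differed by 0.24 without passing. No gene of the FGF (17 genes) or hedgehog (13 genes) lists passed at its brightest probe set, and Fgfr2, an FGF receptor, came closest among the FGF genes with 0.67 and an adjusted p of 0.085. Spred1 of the FGF list fell at another probe set (-1.56, limma adjusted p = 0.048, and 0.12 without E11.5 pool 2). Of 25 imprinted genes, Phlda2 (1.54) and Ndn (0.52) rose, and both calls were lost without E11.5 pool 2 (0.074 and 0.058). Ndn passed at 2 of 8 probe sets. Peg3 of the same list fell at a probe set other than the brightest (-1.87, limma adjusted p = 0.027, and 0.068 without that pool). None of 25 immediate early genes passed, Junb coming closest (0.85, adjusted p = 0.063).

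Of 25 mitosis genes 24 read lower at E12.5 at the brightest probe set, as did 34.2% of all genes, with a median of -1.17. A single one passed the test at that probe set, against 1.21% of all genes that fell. That was Ttk, a kinase of the spindle checkpoint. It read 7.81, 9.76 and 7.72 against 5.13, 6.31 and 6.61 (-2.41, limma adjusted p = 0.049), with E11.5 pool 2 the highest array. Without that pool the median was -0.62 and the Ttk difference -1.75 (adjusted p = 0.09). The second Ttk probe set differed by -0.35 without passing. Bub1, Top2a, Cenpf and Mki67, genes of dividing cells, differed by -2.87, -2.13, -2.05 and -1.17, none past the test. Cenpe, a member of the list described below, fell at a probe set other than its brightest (-4.94, limma adjusted p = 0.013). That call held without E11.5 pool 2 (0.042). The mean of the list also varied within E12.5, from 6.71 in pool 1 to 8.26 in pool 2. Of 26 DNA replication genes none passed and the median was -0.35, or -0.05 without E11.5 pool 2, where the subunit Rrm2 of ribonucleotide reductase differed by -1.32 in place of -1.85.

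Markers of other cell types gave few calls, and over all genes 2.55% rose and 1.21% fell. None of 17 germ cell, 19 endothelial, 16 macrophage and leukocyte or 10 erythroid markers passed. The defining germ cell markers Ddx4, Dazl and Pou5f1 had means of 4.22, 4.61 and 6.03 on the earlier day and 3.65, 5.52 and 5.96 on the later one, the first lying at background on both. Endothelial markers had a median of -0.45 with E11.5 pool 2 and 0.21 without it. Tek, an endothelial receptor, read 10.23 in that pool and 5.62 to 6.97 in the other 5 XX arrays. Pdgfra and Nr2f2, interstitial mesenchyme genes, fell by 2.00 and 1.69 (limma adjusted p = 0.035 and 0.045) among 15 markers with a median of -0.20, or 0.10 without E11.5 pool 2. Without it their differences were -1.63 and -1.69 (adjusted p = 0.09 and 0.11). Pdgfra passed at 1 of its 3 probe sets, which differed by -2.0 to -0.81, and Nr2f2 at 1 of 6 (-2.18 to -0.08). Maf of the same markers fell at a probe set other than the brightest (-2.3, limma adjusted p = 0.042, and 0.11 without E11.5 pool 2). Cyp11a1, which makes the first step of steroid synthesis, fell from 12.05, 10.94 and 11.44 to 9.5, 8.95 and 8.31 (5.88-fold, 95% interval 3.14 to 11, adjusted p = 0.015, and 0.023 without that pool) at 1 of 3 probe sets, alone among 8 steroidogenic genes. Krt18, a keratin of epithelia, rose by 1.88 (adjusted p = 0.013) as the single call among 16 coelomic and mesonephric epithelium markers. Whether the cells these markers stand for had a part in any of the changes above was not tested.

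Cenpe, Akap9, Rock1, Zfp292 and Vps13a fell at 1 probe set each, and Atrx and Malat1 at some of theirs, while further probe sets of these genes moved less. Cenpe, a kinetochore motor, went from 6.73, 9.0 and 9.72 to 3.44, 3.45 and 3.74 (-4.94, limma adjusted p = 0.013), while its second probe set differed by -1.29 (0.18). Akap9, a scaffold of the centrosome and Golgi, fell from 8.97, 9.44 and 11.04 to 4.96, 4.0 and 5.78 (-4.91, 0.0067), and its other 5 differed by -0.16 to -2.25 with none called. Atrx, a chromatin remodeller, fell at 2 of 7 probe sets (-4.84, adjusted p = 0.039, and -4.14, 0.011), and 1 more read lower without passing (-4.49, 0.054). Without E11.5 pool 2 the first 2 had adjusted p-values of 0.071 and 0.012. The other 4 Atrx probe sets, among them the brightest, at 12.21, 12.72 and 12.48 against 12.03, 12.09 and 11.85, differed by -0.10 to -0.75.

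Malat1, a nuclear noncoding RNA, followed the same course. It fell at 3 of 7 probe sets (-4.73, -4.27 and -3.33), while its brightest read 12.61, 11.94 and 12.56 against 12.74, 12.31 and 12 and differed by -0.02. Rock1, a kinase that acts on the actin cytoskeleton, read 7.22, 9.2 and 11.22 against 4.98, 4.5 and 4.68 (-4.49, adjusted p = 0.042 in limma, and 0.099 without E11.5 pool 2), and its other 4 differed by -1.12 to -1.83. Within the E11.5 group pool 3 was the highest array for the falling probe sets of Cenpe, Akap9, Malat1, Rock1 and for those of Atrx that are named here. Xist itself, chosen after its values were seen, had 1 probe set that fell from 12.46, 13.03 and 13.34 to 9.76, 5.01 and 8.99 (-5.03, adjusted p = 0.026, and 0.072 without E11.5 pool 2), while its other 2 differed by 0.07 and 0.30.

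Apart from Xist, the widest gaps between a called falling probe set and another that did not fall were those of Zfp292 (-4.17 against 0.24), Zfp397 (-2.86 against 1.39), Chd8 (-3.07 against 1.17), Robo1 (-3.94 against 0.19) and Vps13a (-3.97 against 0.10). None of the 5 probe sets that read higher passed the test. Chd8, a chromatin remodeller, read 7.86, 6.82 and 8.19 against 5.19, 3.68 and 4.78 at the falling probe set and 9.86, 9.31 and 9.1 against 10.51, 10.27 and 10.99 at the brightest. The call of Zfp397 was lost without E11.5 pool 2 (limma adjusted p = 0.13), and those of the other 4 genes held without that pool.

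Over all 453 genes with a fall, 63 had 1 probe set and 390 had several. Another probe set was called the same way in 45 of the 390 (11.5%, 95% Wilson interval 8.74 to 15.1), and all were called in 11 (Cbln1, Hapln1, Hsp90b1, Idi1, Klhl7, Lpl, Mmp2, Pcmtd2, Pdgfc, Rnf19a and Smc4). The other 345 had a single called probe set. The Wilson interval treats genes read on the same arrays as independent and does not cover the spread between pools. Without 1 XX array the share of 11.5% ran from 3.77% to 13.4%. Among the 1037 further probe sets of the 390 genes, 53 were called lower, 722 read lower without a call, 260 read higher without a call and 2 were called higher. A share of 25.3% therefore had the opposite sign, and 5.11% were called lower, against 1.43% of all probe sets. For the 607 genes with a rise, 249 had 1 probe set, and another was called in 50 of 358 (14.0%). Of their 680 further probe sets 61 were called higher (8.97%, against 1.69% of all probe sets) and 16.2% had the opposite sign. The opposite sign for a fall means a higher reading, which 61.1% of all probe sets with 1 gene symbol had, and for a rise a lower reading, which 38.9% had. The leading probe set of a gene was chosen as the one with the largest change among those called. The gene sets also differ in how they are probed, since 13.9% of the falling genes and 41.0% of the rising genes had 1 probe set, against 50.9% of all genes. Where a fall had a second call the leading probe set started at a median of 10.46 and where it had none at 9.16. Dnajc5 and Ankrd12 had a call in each direction.

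**Figure D4:**
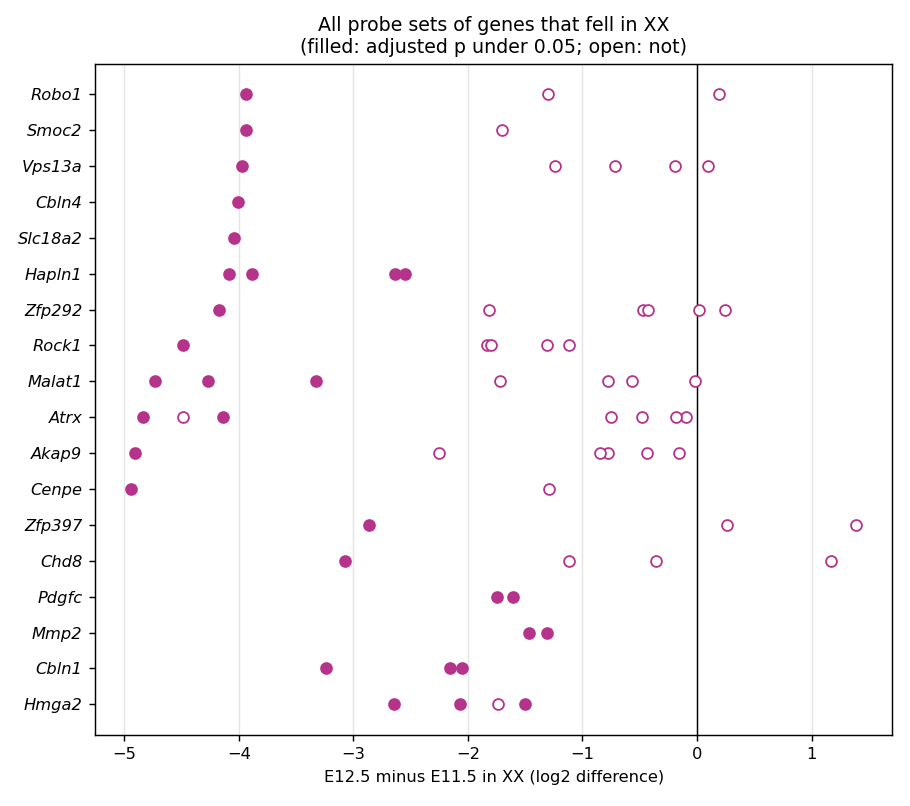
Log2 difference between E12.5 and E11.5 in XX (x axis) at every probe set of 18 genes that fell (y axis), filled where the adjusted p was under 0.05. All points of Hapln1, Pdgfc, Mmp2 and Cbln1 are filled and lie at -1.31 or lower, while Akap9, Zfp292, Vps13a and Robo1 have 1 filled point at -3.94 or lower and the rest between -2.25 and 0.24.

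Genes with agreement across probe sets, chosen after their values were seen, were described next. Cbln1, a second cerebellin, fell at all 3 (-3.24, -2.16 and -2.05), and its leading probe set went from 10.71, 11.09 and 9.71 to 7.25, 7.62 and 6.94. Hmga2, a chromatin protein of growing embryonic cells, fell at 3 of 4 (-1.5, -2.07 and -2.65), and the brightest went from 13.16, 13.71 and 13.2 to 12.01, 11.55 and 12.01 (limma adjusted p = 0.0076). Bace2, an aspartyl protease, rose at all 5 of its probe sets by 0.83 to 3.03, and Olfm1, a secreted olfactomedin, at all 3, by 1.73, 1.54 and 2.78. Phgdh, the first enzyme of serine synthesis, rose at both, from 11.24, 11.26 and 10.89 to 12.89, 12.94 and 12.89 at the brighter (1.77, adjusted p = 0.004). As at every called probe set, the days did not overlap at those of these 5 genes, and the same held for 26.6% of all probe sets. Without E11.5 pool 2, 1 of the 3 Cbln1 calls held (limma adjusted p = 0.014, the others 0.056 and 0.065). Hmga2 kept 2 of 3 (0.021 and 0.029, the other 0.058) and Bace2 3 of 5, the lost calls being those at 0.83 (0.094) and 2.41 (0.057). All calls of Olfm1 and Phgdh held.

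The XX change was set against that in XY cells with the interaction of sex and day, which passed at 774 probe sets (1.75%) overall. Among the 1378 probe sets called in XX, 236 passed it, 168 of the 747 rises and 68 of the 631 falls. The median XY change was 0.15 at the probe sets that rose in XX and -0.66 at those that fell, against 0.02 over all. XY cells had a call of the same direction at 101 of the rises (13.5%) and 213 of the falls (33.8%), against 3.18% of all probe sets called higher in XY and 2.98% called lower. Calls of the opposite direction in XY stood at 27 of the rises and 13 of the falls. Selection for a call in XX makes the XX changes large, so the medians of the sexes are not on an equal footing.

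All 4 ovarian markers changed differently in the sexes. The difference of the changes was 2.71 ± 0.40 for Foxl2, 3.62 ± 0.44 for Rspo1, 3.86 ± 0.68 for Irx3 and 3.62 ± 0.40 for Gng13 (interaction, limma adjusted p = 0.0087, 0.0035, 0.022 and 0.002). In XY cells Foxl2 changed by 0.19, Irx3 by -0.52 and Gng13 by -0.27, none past the test, and Rspo1 fell by 1.3 (adjusted p = 0.039). For Lhx9 (3.86 ± 0.24, adjusted p = 0.0001), Emx2 (3.00 ± 0.35, 0.0027), Fst (5.07 ± 0.69, 0.0054), Bmp2 (2.40 ± 0.44, 0.025) and Fgfr2 (2.27 ± 0.27, 0.0033) the interaction passed at the brightest probe set although the XX change there did not. In XY cells the same probe sets fell (-3.82, -3.12, -3.16, -1.65 and -1.6). Another probe set did pass in XX for Fst (2.35, limma adjusted p = 0.045) and for Lhx9 (-1.99, 0.0045). Sema3a rose in XX and fell by 2.09 in XY (interaction 4.02 ± 0.34, 0.00053), and Nr0b1 likewise fell by 1.2 in XY (interaction 2.29 ± 0.35, 0.011). Egfl6 (adjusted p = 0.15), Foxl2os (0.14) and Insyn2b (0.066) rose in XX without passing the interaction.

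The falls gave both outcomes in the same test. Cbln4, Smoc2 and Robo1 differed from XY by -4.60 ± 0.46, -3.75 ± 0.38 and -4.18 ± 0.37 (interaction, limma adjusted p = 0.0013, 0.0015 and 0.00064), with XY changes of 0.59, -0.19 and 0.25. Cenpe, Akap9, Atrx, Malat1, Rock1, Zfp292, Vps13a and Slc18a2, a vesicular monoamine transporter that fell by 4.04 in XX, also fell in XY (-4.64, -5.20, -5.77, -5.48, -4.84, -4.86, -4.51 and -3.36), and none of the 8 passed the interaction (adjusted p from 0.79 to 0.94). The difference of the changes for these 8 lay between -0.68 and 0.92, with standard errors of 0.72 to 1.46, so that differences of about that size were not detectable here. For Cenpe, Akap9, Rock1, Zfp292 and Vps13a the E12.5 mean lay at background in both sexes, so their changes are bounded by the E11.5 level and the comparison says little of the sexes. At its called probe set Ttk fell in XX and not in XY, where it differed by 1.36, and the interaction passed (-3.77 ± 0.79, 0.044). Fcgr3, an Fc receptor of leukocytes, differed by -0.91 in XX and rose by 1.48 in XY (interaction -2.39 ± 0.38, 0.013).

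**Figure D5:**
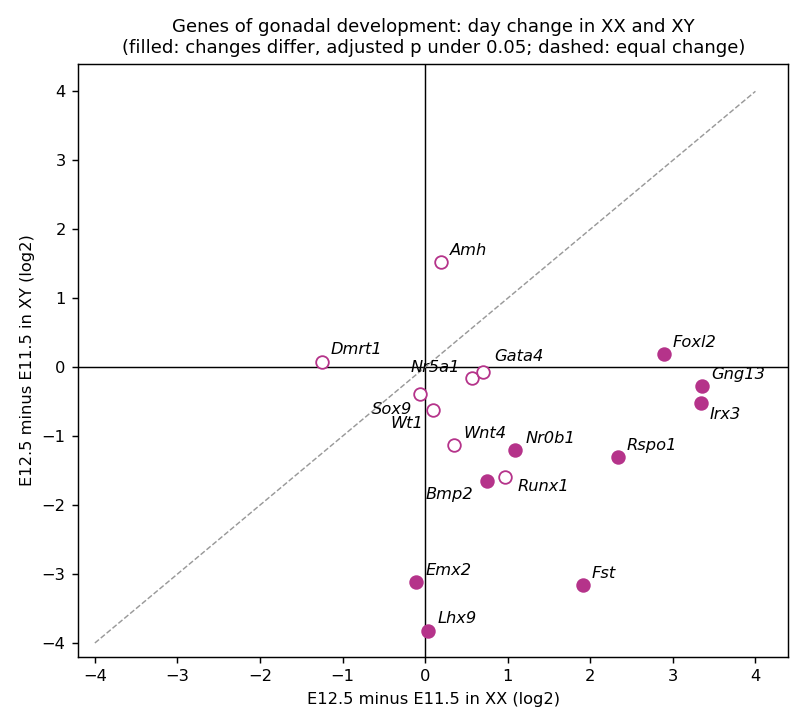
Log2 difference between E12.5 and E11.5 in XX (x axis) and XY (y axis) for 17 genes of gonadal development, filled where the changes differ at an adjusted p under 0.05, with the dashed line marking equal change. Each point is the brightest probe set of its gene. Foxl2, Gng13, Irx3 and Rspo1 lie far to the right, and Lhx9 and Emx2 lie near 0 in XX and below -3.1 in XY. Another Lhx9 probe set, not drawn, differed by -1.99 in XX.

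Short motifs were counted in the 250 bases before the start, on both strands, in genes with a promoter in the table (14301 of 17996 genes, 494 of 607 with a rise and 349 of 453 with a fall). No motif holds the letters of another. The forkhead motif GTAAACA stood in 1.62% of promoters of rising genes, 1.15% of falling genes and 2.53% of all. The TCF/LEF motif CTTTGAT, through which Wnt signalling acts, stood in 2.83%, 2.87% and 2.67%, and the Nr5a1 motif AAGGTCA in 3.64%, 1.43% and 3.46%. The E-box CACGTG, taken for comparison, stood in 7.09%, 10.6% and 7.57%. None of the 4 motifs stood in the 250-base windows of Foxl2, Rspo1, Irx3 or Gng13. A match is a string of letters and not a site, and no test was made.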

How the data were processed

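The authors deposited 1 table with 1 value per probe set and array, read on an Affymetrix mouse array, and the values are taken as log2 signals because none exceeds 14.45. Not given in the sources used here are the log base, the summarisation and the normalization. Per the labels' protocols, PicoPure RNA went through the TargetAmp 2-round amplification before biotin labelling. Array medians lay between 6.494 and 6.592. Of 45037 probe sets, 798 blank on every array and 1 blank on a single array were left out and 44238 tested. Gene symbols came from the platform annotation, and the RefSeq table of GRCm38.p6 brought 34126 of them up to date by Entrez identifier. A single symbol was held by 34328, several by 850 and none by 9060, and genes were named from the first kind.

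The model was limma's lmFit and eBayes (version 3.58.1, R 4.3.3) on 4 group means over 12 arrays, with 8 residual and 2.11 prior degrees of freedom, and adjusted by Benjamini-Hochberg over all 44238. A probe set was called at an adjusted p under 0.05, two-sided. The p-values come from this model, or from its refit without an array where one is said to be left out. Folds and their intervals are antilogs of log2 differences. Lists use the brightest probe set of a gene, and a list's mean signal is the mean of its genes' log2 values. The arrays, 3 per group, limit the precision.

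Genes were named by rule: the 12 largest rises and falls with days that do not overlap (only probe sets with 1 symbol, no clone names, and neither Xist, Tsix nor Y-linked genes), 17 genes of gonadal development, up to 4 called members of each of 27 lists (up to 2 by smallest p where none passed) and the 5 widest gaps between probe sets of a gene other than Xist, Tsix and clone names, 84 genes in all. Further members given by value were picked with the values in view. The comparison, the members and the lists were chosen with earlier results of these data known.

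The alternatives were brighter probe sets only, array weights, a prior variance with a mean trend, median centring, quantile normalization, the pool number as a block, the 6 XX arrays alone, averaging probe sets by gene, 1 probe set per gene and leaving out each XX array.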

Additional observations from a re-analysis of the deposited data

Results flagged for a closer look

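The changes of XX and XY cells over the day differed, by the interaction of sex and day in limma, at 236 of the probe sets called in XX. Among the genes named, the log2 change in XX exceeded that in XY for Fst (5.07), Sema3a (4.02), Irx3 (3.86), Lhx9 (3.86), Irx5 (3.64), Gng13 (3.62), Rspo1 (3.62), Il17d (3.46), Irs4 (3.22), Stum (3.15), Cacna1d (3.13), Emx2 (3.0), Foxl2 (2.71), Igfbp2 (2.58), Bmp2 (2.4), Nr0b1 (2.29), Fgfr2 (2.27), Axin2 (1.59) and Rgs12 (1.33). It lay below that in XY for Cbln4 (-4.6), Robo1 (-4.18), Ttk (-3.77), Smoc2 (-3.75) and Fcgr3 (-2.39). Each of these was past an adjusted p of 0.05.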

How the results depend on the processing

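The count of 1378 called probe sets (747 rises, 631 falls) was 2405 (1286 and 1119) with array weights and 624 (331 and 293) with the 6 XX arrays alone. Falls numbered 325 in a refit with 1 probe set per gene. Other settings gave 980 (the refit with 1 probe set per gene) to 1630 (brighter probe sets). The refits by gene tested 17996 genes in place of 44238 probe sets. The brighter setting tested only probe sets above the median mean signal. Counts from these settings are therefore not on the same base as 1378 and do not show a loss or gain in share. Same-numbered pools correlated in their deviations at 0.0648, 0.153 and -0.104, and the other pairs at -0.22 to 0.174. With 3 pools per day these values cannot decide whether the pool number pairs the arrays. The fit with the replicate block gave 1201. Without 1 XX array the count ran from 183 (E12.5 pool 3) to 1945 (E11.5 pool 1), rises from 110 to 1114, falls from 73 to 831, and calls that differed from XY from 67 to 366, against 236. The share of falling genes with another called probe set, 11.5%, was 18.4% over brighter probe sets and 3.77% to 13.4% without an array. Of 27 lists 19 had a called member, and 10 to 20 without an array. Of the 56 called genes named by rule, 33 kept their call without E11.5 pool 2 and 20 in all 6 fits without an XX array. Differences near 0 changed sign without being called: Sox9 to 0.06 with the mean of probe sets, Wt1 to -0.04 with array weights and Lhx9 to -0.62 with the mean of probe sets. Without 1 XX array Sox9 ran from -0.38 to 0.11, Wt1 from -0.07 to 0.39, Lhx9 from -0.1 to 0.13 and Emx2 from -0.29 to 0.21. The causes were not tested. Where a mean lay at background, 3.33 to 5.17, the size of a change is bounded by it.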
